A study of Drosophila melanogaster with 24 samples.

Results

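The 10 genes described here belong to the apoptotic pathway: the death inducers rpr, grim, skl and W (hid), the inhibitor th (Diap1), the initiator caspase Nc (Dronc), its adaptor Dark, the effector caspases Ice (Drice) and Dcp-1, and the Bcl-2 relative Buffy. They were taken by name from the deposited gene tables, where Dark is listed under its older symbol Ark. The 10 genes are among 15339 genes in the count table, and all 10 passed the filter on low counts that left 10324 genes for testing. The RNA came from neuroblasts, stem cells that divide to give the neurons of the brain, in Drosophila melanogaster. The antennal lobe (AL) lineage was sampled at 24, 36, 50 and 84 h after larval hatching, and the mushroom body (MB) lineage at 24, 50 and 84 h after larval hatching and at 36 h in the pupa. Each of the 8 groups held 3 libraries, and each library was made from 89 to 121 pooled, GFP-marked cells picked by a robot. The strain, the sex and the driver behind the GFP mark were not stated in the labels. No group was mutant or treated according to the labels, which do not say whether replicate libraries came from separate animals, so p-values measure the spread between libraries, which may be technical.

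In flies, cells are committed to apoptosis by rpr, grim, W and skl, whose products bind the inhibitor encoded by th and release caspases from it. Freed Dronc assembles with the adaptor Dark and activates the effector caspases Drice and Dcp-1, which dismantle the cell. Neuroblasts end proliferation at times that depend on their lineage. Those of the MB continue into late pupal life and are then removed by programmed death, in which reaper-family genes and autophagy take part.

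Gene counts totalled 6.06 to 9.27 M per AL library and 3.15 to 5.83 M per MB library, where 1 M is 1000000 counts, so the same CPM (counts per 1000000, on totals scaled by the trimmed mean of M-values) rested on fewer reads in MB. A count of 0 allows up to 3 counts, which was 0.337 to 0.887 CPM depending on the library. These limits cover counting error only. Of 9 neuroblast genes listed, dpn (419 to 629 CPM by group mean), mira (262 to 470) and wor (311 to 875) were high in every group. Lower were ase (72.5 to 297) and insc (64.5 to 155), while pros, CycE, grh and brat were at 532 or more. The 9 summed to 5813 to 6322 CPM at 24 h and 6178 to 6950 at 84 h in AL. Between these AL ages mira was called higher and ase lower (2 calls with DESeq2, 1 with limma), where 12.4% of all tested genes were called. In MB the 9 summed to 6377 to 6892 at 24 h and 4105 to 5728 at 84 h. Between these MB ages 5 were called lower and 1 higher (6 with DESeq2, 3 with limma), where 14.4% of all tested genes were called. The 5 MB lineage markers summed to 30.6 to 162 CPM in AL libraries and 441 to 685 in MB libraries, led by tll (group means 1.76 to 4.26 in AL and 255 to 301 in MB), although Dr went the other way (up to 78.4 in AL and at most 1.46 in MB). The 5 AL lineage markers did not separate the lineages as a sum, at 218 to 456 CPM in AL and 321 to 526 in MB. Of these, ems followed the labels (47.9 to 148 in AL and at most 0.666 in MB), and oc went against them (1.98 to 72.8 in AL and 212 to 357 in MB). The neuronal gene elav was also present at 255 to 433 CPM. Among glial genes, repo was at or below 3.49 CPM, while Eaat1 was at 85.3 to 200 and nrv2 at 182 to 418.

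The 4 death inducers lie in a row on the minus strand of chromosome arm 3L, within 270.4 kb of the dm3 genome build in which the deposited positions are given. W spans 18162673 to 18178741, grim 18295819 to 18297517, rpr 18390635 to 18391535 and skl 18431661 to 18433042. Their summed level was higher late in larval life than at 24 h in both lineages. Per transcript length, this summed level was 7.2 to 10.1 TPM (transcripts per 1000000) in the AL libraries at 24 h and 28.3 to 55.5 TPM in those at 84 h. In MB it was 11.2 to 31 TPM at 24 h and 82.1 to 116 TPM at 84 h. The libraries of 24 and 84 h did not overlap in either lineage. In pooled cells, a larger share of cells with a transcript and more transcript per cell cannot be told apart.

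**Figure D1:**
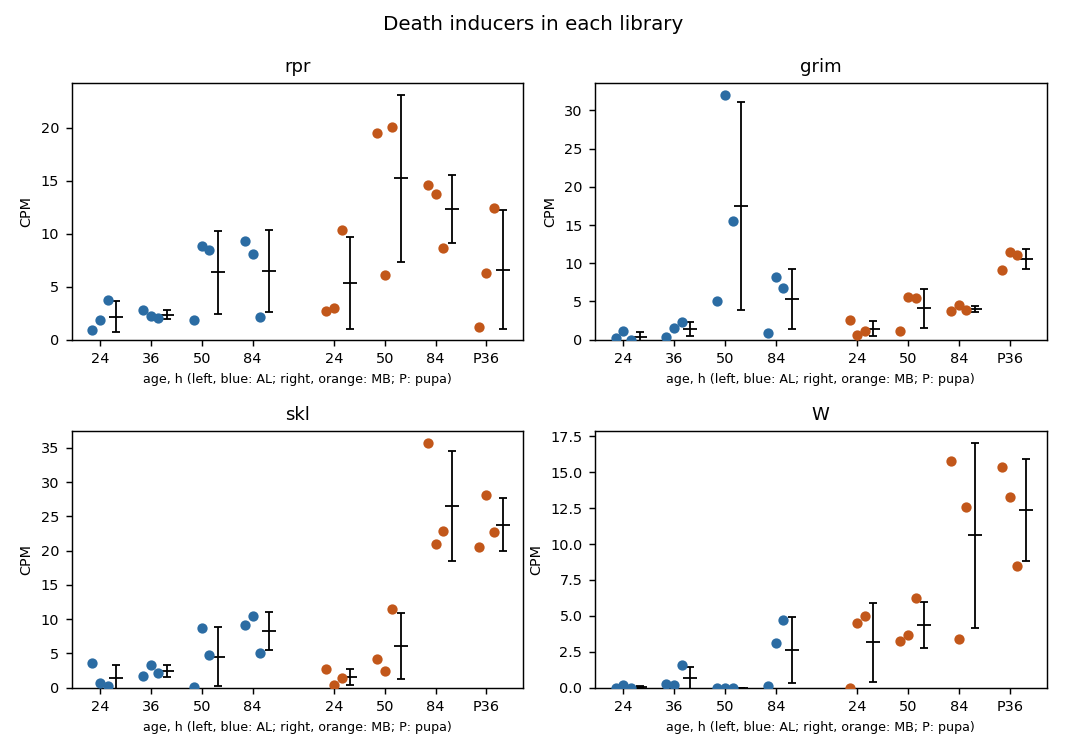
CPM (vertical axis) of rpr, grim, skl and W in each library of the 8 groups (horizontal axis), with the mean and SD of each group as a black mark. The skl libraries of MB at 84 h and in the pupa lie between 20.6 and 35.7 CPM, above every other skl library, and W was at 0 in all 3 AL libraries at 50 h.

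Of the inducers, only skl was called in MB neuroblasts between 24 and 84 h. Its 3 MB libraries were at 2.7, 0.428 and 1.42 CPM at 24 h, at 4.14, 2.45 and 11.5 at 50 h, at 35.7, 21 and 22.9 at 84 h and at 20.6, 28.1 and 22.7 in the pupa. Every library of the 2 later ages stood above every library of the 2 earlier ages. From 24 to 84 h, skl rose by 4.08 ± 0.87 (SE) on the log2 scale (adjusted p = 0.00089 by Benjamini-Hochberg over the 10324 genes, quasi-likelihood test of edgeR, as for all adjusted p-values unless another tool is named). That call held under every alternative setting and with any 1 library left out. Between 84 h and the pupa the skl means were 26.5 ± 7.99 and 23.8 ± 3.86 CPM (SD, n = 3).

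In AL neuroblasts the mean of skl at 84 h was 8.27 ± 2.78 CPM (SD, n = 3), and its log2 difference from MB at that age, -1.68, was not called (adjusted p = 0.2), although the libraries did not overlap and a fit of these groups alone called it (-1.67, adjusted p = 0.0094). The libraries read 3.63, 0.614 and 0.171 CPM at 24 h, 1.73, 3.33 and 2.16 at 36 h, 0.143, 8.68 and 4.81 at 50 h and 9.2, 10.5 and 5.13 at 84 h. The groups at 24 and 84 h did not overlap, whereas the group at 50 h spanned nearly the whole range. The rise from 24 to 84 h was 2.47 ± 0.82 on the log2 scale (adjusted p = 0.044). It missed the threshold in 7 of the fits that left out 1 library (log2 values 1.96 to 2.47), namely those without AL replicate 2 or 3 at 24 h, replicate 3 at 36 h, replicate 3 at 50 h or replicate 1 or 2 at 84 h, and without MB replicate 3 at 24 h. It also missed it in a fit of the 2 groups alone (log2 value 2.50, adjusted p = 0.094).

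The gene grim had its highest mean at 50 h in AL neuroblasts. It was at 0.158, 1.07 and 0 CPM at 24 h, at 0.4, 1.58 and 2.28 at 36 h, at 5.01, 32 and 15.5 at 50 h and at 0.897, 8.25 and 6.8 at 84 h. All 3 libraries at 50 h exceeded all 6 of the younger ages, and differed widely among themselves. The step from 36 to 50 h was a rise of 3.60 ± 0.87 on the log2 scale (adjusted p = 0.0081), and it was not called without AL replicate 1 at 36 h (3.16) or without AL replicate 2 at 50 h (2.83). From 24 to 84 h grim rose by 3.59 ± 0.94 (adjusted p = 0.0066), although replicate 1 at 84 h lay below the highest library at 24 h. A fit of the 2 groups alone gave 3.65 with an adjusted p of 0.078. Taken over all 4 AL ages, the adjusted p for grim was 6.4e-05.

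In MB the highest mean was in the pupa. Mean grim levels were 1.45 ± 0.967, 4.11 ± 2.53 and 4.04 ± 0.403 CPM at 24, 50 and 84 h, and 10.6 ± 1.29 CPM in the pupa (SD, n = 3). The pupal libraries, at 9.11, 11.5 and 11.1 CPM, lay above all larval MB libraries. The difference between 84 h and the pupa was nevertheless not called (log2 value 1.39 ± 0.80, adjusted p = 0.58). Over the 4 MB ages the adjusted p for grim was 0.073, and grim was called by DESeq2 (0.037), limma (0.04), spike-in scaling (0.017), no filter (0.032) and a fit of the MB groups alone (0.024).

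W, the gene better known as hid, was the scarcest of the 10. Its mean over all libraries was 2.62 TPM, and 6 libraries had no count. In AL it was at 0, 0.154 and 0 CPM at 24 h, at 0.266, 0.175 and 1.56 at 36 h, at 0 in all 3 libraries at 50 h and at 0.112, 3.08 and 4.68 at 84 h. Replicate 1 at 84 h was thus among the low libraries of the younger ages. Summed over libraries, there was 1 count at 24 h and there were 57 at 84 h, a ratio of 45 in CPM with a 95% counting interval of 7.76 to 1808. The change was called (adjusted p = 0.01), but not in a fit of the 2 groups alone (adjusted p = 0.091), on log2(TPM + 1) values with limma (0.19) or without AL replicate 3 at 24 h (0.053). Against the floor of 0.423 CPM at 50 h, W was at least 6.21-fold higher at 84 h (adjusted p = 0.0072), a call absent from a fit of the 2 groups alone (0.051) and from limma (0.27).

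W was higher in MB at 24 and 50 h. Its MB libraries were at 0, 4.49 and 4.99 CPM at 24 h, at 3.25, 3.67 and 6.22 at 50 h, at 15.8, 3.41 and 12.6 at 84 h and at 15.4, 13.3 and 8.46 in the pupa. From 24 to 84 h, W did not pass the test within MB (log2 value 1.75). At 50 h the lineages did not overlap, and W was at least 10.4-fold higher in MB than in AL (adjusted p = 0.00073), a call kept in every alternative and with any 1 library left out. At 24 h, 42 counts in MB stood against 1 in AL, a CPM ratio of 54.3 with a counting interval of 9.24 to 2197 (adjusted p = 0.0076). MB replicate 1, however, was at 0 like 2 of the AL libraries, and the call was lost in a fit of the 2 groups alone (0.073) and with limma (0.21).

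Transcripts of rpr, the founding member of the family, were called in no comparison by the main test. In MB its libraries were at 2.7, 3 and 10.4 CPM at 24 h, at 19.5, 6.12 and 20.1 at 50 h, at 14.6, 13.8 and 8.64 at 84 h and at 1.17, 6.26 and 12.4 in the pupa. Every pair of neighbouring ages overlapped. AL means were 2.19 ± 1.44, 2.37 ± 0.389, 6.38 ± 3.92 and 6.52 ± 3.86 CPM (SD, n = 3) from 24 to 84 h, and the log2 difference between 84 and 24 h was 1.58 ± 0.74 (adjusted p = 0.16). With scaling to spike-in RNA and cell number, which raised the median of all genes in this comparison from -0.02 to 0.59, the rpr value was 2.27 (adjusted p = 0.026). That scaling also called rpr lower in AL than in MB at 24 h (-2.30, adjusted p = 0.011), where the median of all genes was -1.05. The main value there was -1.29 and not called. AL replicate 1 at 50 h was the lowest of its group for rpr (1.86 CPM), grim (5.01) and skl (0.143) alike.

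The inhibitor encoded by th, a ubiquitin ligase that holds caspases in check, was the most abundant of the 10, at a mean of 121 TPM over all libraries, above 93.4% of genes. It fell over the larval ages in MB, and within AL it was called only with spike-in scaling. In MB the libraries stood at 239, 228 and 174 CPM at 24 h, at 182, 138 and 163 at 50 h, at 117, 93.4 and 125 at 84 h and at 132, 154 and 141 in the pupa. All libraries at 84 h were below all those at 24 and 50 h and below those of the pupa. The difference between the pupa and 84 h, 0.35 ± 0.18, was not called (adjusted p = 0.46). The gene th fell by 0.93 on the log2 scale from 24 to 84 h in MB (SE 0.18, adjusted p = 0.00011), under every alternative setting and with any 1 library left out.

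In AL, th was at 109, 148 and 178 CPM at 24 h, at 131, 143 and 150 at 36 h, at 172, 188 and 159 at 50 h and at 144, 167 and 221 at 84 h. Groups at 24 and 84 h overlapped, and the difference of 0.29 ± 0.17 was not called (adjusted p = 0.3). With spike-in scaling it was 0.84 and called (adjusted p = 0.042), where the median of all genes was 0.59. The difference between the lineages in the change from 24 to 84 h was tested directly and was 1.22 ± 0.25 on the log2 scale (adjusted p = 0.00098). It was the only call among the 10 genes, where 4.71% of all tested genes were called, and it was kept in every alternative and with any 1 library left out.

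The lineages also differed in th at both ends of larval life, in opposite directions. At 24 h AL was lower than MB by a log2 value of -0.56 ± 0.17 (adjusted p = 0.028). The call was lost in a fit of the 2 groups alone (-0.56, adjusted p = 0.051), with limma (-0.46) and without AL or MB replicate 1 or 2 at that age (-0.57 to -0.38). At 84 h AL was higher by 0.66 ± 0.17 (adjusted p = 0.011), and the libraries did not overlap. That call was lost with spike-in scaling (0.40) and without AL replicate 3 (0.49) or MB replicate 2 (0.57).

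The level of the summed inducers relative to th was also higher at 84 h. The ratio of their TPM to that of th within a library was 0.0668 to 0.109 in AL at 24 h and 0.159 to 0.417 at 84 h. In MB it was 0.0707 to 0.264 at 24 h, 0.292 to 0.683 at 50 h, 0.791 to 1.29 at 84 h and 0.602 to 0.864 in the pupa. Only in 2 of the MB libraries at 84 h did the summed inducers exceed th. In both lineages the ratios at 24 and 84 h did not overlap; these ratios are a description and were not tested.

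**Figure D2:**
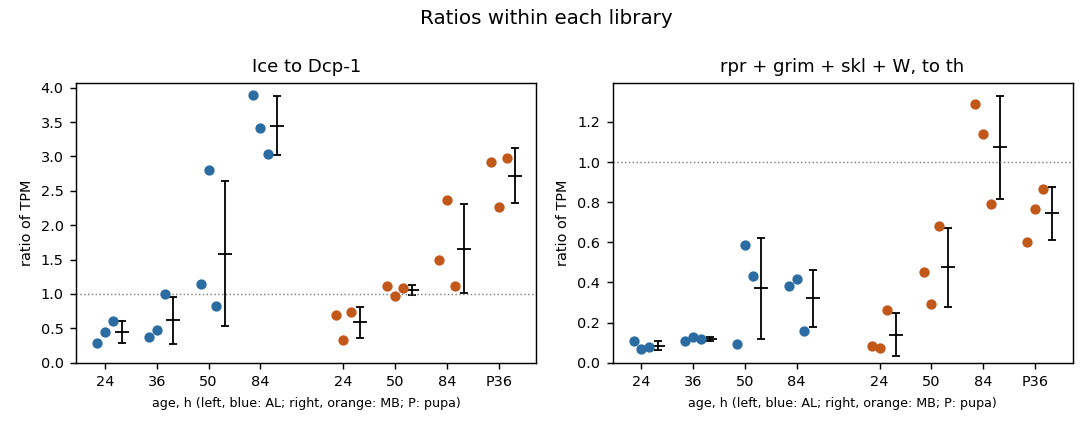
Ratios of TPM values per library (vertical axis) in the 8 groups (horizontal axis), for Ice over Dcp-1 and for the 4 summed inducers over th; the dotted line marks a ratio of 1 and black marks give the mean and SD. Ice over Dcp-1 runs from 0.29 to 0.605 in AL at 24 h and from 3.03 to 3.89 at 84 h, and inducers over th passes 1 only among the MB libraries at 84 h.

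The initiator caspase gene Nc was called in no comparison, and its adaptor Dark only over the 4 AL ages. Nc, at 9961579 to 9964102 on the plus strand of 3L, had group means between 5.53 ± 3.08 CPM in MB at 84 h and 13.8 ± 6.2 CPM in MB at 50 h (SD, n = 3), and no pair of neighbouring groups in the order of means was free of overlap. Its pupal libraries, at 10.3, 10.9 and 19.6 CPM, were above the MB libraries at 84 h, at 5.54, 8.6 and 2.44 CPM, but the difference of 1.30 ± 0.55 had an adjusted p of 0.3.

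Dark was highest in AL at 36 h. It read 35.7, 38.2 and 39.6 CPM at 24 h, 78.9, 69.9 and 53.3 at 36 h, 48.4, 54.2 and 45 at 50 h and 51.3, 27.1 and 44.5 at 84 h. The groups at 24 and 36 h did not overlap, and the difference of 0.83 ± 0.25 had an adjusted p of 0.051 (0.019 with DESeq2 and 0.046 with no filter). Over the 4 AL ages Dark just passed (adjusted p = 0.049), but it did not pass in 19 of the fits that left out 1 library (adjusted p 0.051 to 0.23), libraries of both lineages among them, nor with spike-in scaling (0.17), the AL groups alone (0.08) or limma (0.33). In MB its group means ran from 39.6 ± 8.46 to 55.4 ± 10.1 CPM. There it was called only with spike-in scaling, over the 4 ages (adjusted p = 0.006) and from 24 to 50 h (-1.53, where the median of all genes was -0.98).

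The 2 effector caspases took different courses with age, although within MB only Ice was called by the main test. Ice, at 25625375 to 25627307 on the plus strand of 3R, rose with age in both lineages. In AL it stood at 25.2, 32.4 and 26.2 CPM at 24 h, at 16.5, 18.4 and 26 at 36 h, at 52.1, 83.6 and 42.3 at 50 h and at 105, 98.6 and 122 at 84 h. Libraries at 50 h lay above all younger ones, and those at 84 h above all at 50 h. The rise from 24 to 84 h was 1.95 ± 0.27 on the log2 scale (adjusted p = 5.4e-07), and the step from 36 to 50 h was 1.54 ± 0.27 (adjusted p = 8.5e-05), both kept in every alternative and with any 1 library left out. The step from 50 to 84 h, 0.87 ± 0.26 (adjusted p = 0.043), was lost with spike-in scaling (adjusted p = 0.14) and without AL replicate 1 or 3 at 50 h or any of the 3 AL libraries at 84 h (0.67 to 0.93).

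In MB, Ice read 30.4, 20.1 and 36.8 CPM at 24 h, 30.2, 25.5 and 27.5 at 50 h, 82.2, 41.2 and 53.3 at 84 h and 93.2, 76.5 and 95.7 in the pupa. The groups at 24 and 50 h overlapped, and all libraries at 84 h and in the pupa were above them. The rise from 24 to 84 h was 1.02 ± 0.27 (adjusted p = 0.0055), and it was lost with spike-in scaling (0.79, where the median of all genes moved from 0.05 to -0.18), without MB replicate 2 at 24 h (0.82) or without MB replicate 1 at 84 h (0.70). The step from 50 to 84 h was 1.09 ± 0.27 (adjusted p = 0.01) and was lost without MB replicate 1 at 84 h (0.77). Over the 4 MB ages, Ice had an adjusted p of 1.4e-06, called in every alternative.

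Ice was higher in AL than in MB at 50 h by 1.10 ± 0.27 (adjusted p = 0.0037) and at 84 h by 0.88 ± 0.26 (adjusted p = 0.025). The former was lost without AL replicate 2 at 50 h (0.77). The latter was lost with spike-in scaling (0.66) and without AL replicate 3 (0.80), MB replicate 2 (0.70) or MB replicate 3 (0.82) at 84 h. At 24 h the lineages overlapped, and Ice was called only with spike-in scaling (-1.10, where the median of all genes was -1.05). The rise from 24 to 84 h was not shown to differ between the lineages: the difference was 0.94 ± 0.37 with an adjusted p of 0.16. With spike-in scaling it was 1.76 and called (adjusted p = 0.014), where the median of all genes was 0.81.

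Unlike Ice, the second effector caspase Dcp-1 was lower in AL at 84 h than at 24 h. Its AL libraries were at 79, 66.8 and 39.4 CPM at 24 h, at 40.4, 35.7 and 23.6 at 36 h, at 41.5, 27.1 and 46.7 at 50 h and at 24.5, 26.2 and 36.4 at 84 h. All 3 libraries at 84 h were below all 3 at 24 h. The change was -1.09 ± 0.31 on the log2 scale (adjusted p = 0.014). It was lost with spike-in scaling (-0.51), with limma (-0.96) and without AL replicate 1 or 2 at 24 h or AL replicate 1 or 2 at 84 h (-1.03 to -0.86). By steps, Dcp-1 changed by -0.90 from 24 to 36 h (adjusted p = 0.1), where Ice changed by -0.46 (adjusted p = 0.42). Over the steps from 36 to 50 h and from 50 to 84 h, where Ice rose, Dcp-1 changed by 0.21 and -0.41, neither called.

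In MB, Dcp-1 means were 47.3 ± 8.37, 23.8 ± 0.665, 36.5 ± 18.3 and 29.6 ± 0.935 CPM (SD, n = 3) from 24 h to the pupa, and no MB comparison was called. The difference between 24 and 50 h, whose libraries did not overlap, was -0.99 with an adjusted p of 0.081. It was called with no filter (0.032), with the groups alone (0.038), without MB replicate 2 at 84 h (0.037) and with spike-in scaling (-2.01). Over the 4 MB ages, Dcp-1 was called with spike-in scaling (0.00051) and without MB replicate 2 at 84 h (0.023). The gene pita on the opposite strand overlaps Dcp-1 by 141 bases. It was at 58.6 to 127 CPM and was called in no comparison. How the counting treated strand is not stated, so whether reads of pita in that stretch entered the count of Dcp-1 cannot be told.

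The ratio of Ice to Dcp-1 in TPM is given as a description and was not tested. In AL it was 0.29 to 0.605 at 24 h, 0.372 to 1 at 36 h, 0.823 to 2.8 at 50 h and 3.03 to 3.89 at 84 h. In MB it was 0.324 to 0.74 at 24 h, 0.972 to 1.12 at 50 h, 1.12 to 2.37 at 84 h and 2.26 to 2.98 in the pupa. Dcp-1 was the more abundant transcript in all libraries at 24 h, and Ice was the more abundant in all at 84 h and in the pupa.

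**Figure D3:**
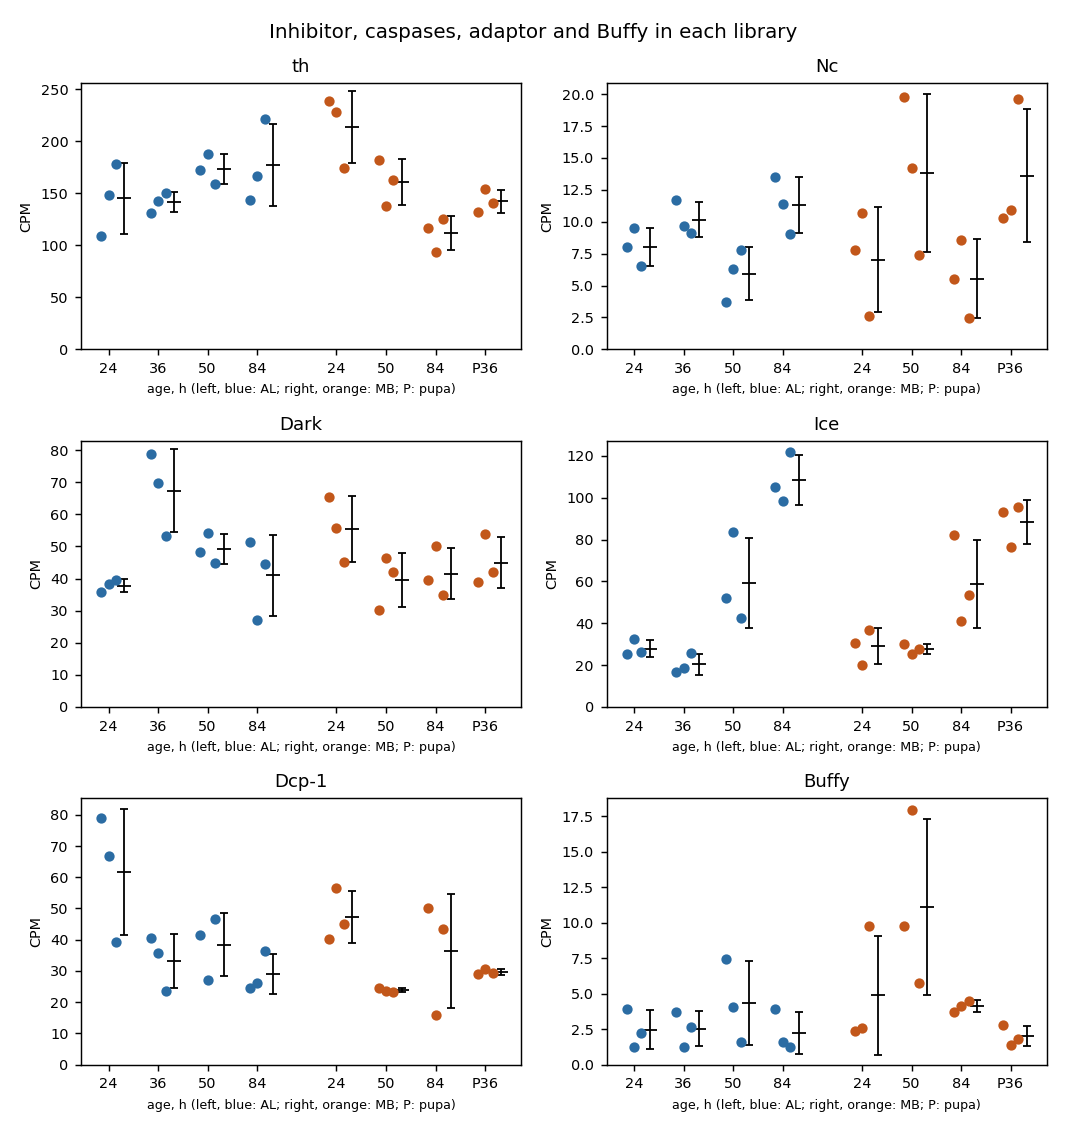
CPM (vertical axis) of th, Nc, Dark, Ice, Dcp-1 and Buffy in each library of the 8 groups (horizontal axis), with mean and SD as a black mark. Ice stands at 98.6 to 122 CPM in AL at 84 h against 25.2 to 32.4 at 24 h, and th in MB at 93.4 to 125 at 84 h against 174 to 239 at 24 h.

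Buffy, a Bcl-2 relative with a protective role in flies, was low throughout. Its group means were 2.02 ± 0.713 to 4.88 ± 4.2 CPM except in MB at 50 h, where the libraries read 9.76, 17.9 and 5.74 CPM (mean 11.1 ± 6.18, n = 3). That group overlapped MB at 24 h, and Buffy was called in no comparison by edgeR; over the 4 MB ages DESeq2 called it (adjusted p = 0.045). CG13196 lies on the opposite strand within Buffy and shares 2284 bases with it. It too was highest in MB at 50 h (21.5 ± 3.52 CPM, against 3.69 to 7.83 in the other groups). Without the strand setting of the counting, whether reads of either gene entered the count of the other cannot be told.

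Counted over the list, 5 of the 10 genes changed between 24 and 84 h in AL: Ice, W, grim and skl rose and Dcp-1 fell. Among all tested genes, 12.4% were called in that comparison, 5.67% higher and 6.7% lower at 84 h. The median log2 change was 1.04 for the 10 genes and -0.02 for all tested genes. A fit of the 2 groups alone called 2 of the 10 and 982 of all genes, against 1277 of all genes in the main fit. Leaving out single libraries gave 3 to 5 of the 10 and 933 to 1302 of all genes. With spike-in scaling 6 rose and none fell, where the split over all genes moved from 585 higher and 692 lower to 1488 higher and 150 lower.

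In MB, 3 of the 10 changed over the same span: skl and Ice rose and th fell. The background was 14.4% called, 5.81% higher and 8.63% lower, and the medians were 0.39 for the 10 genes and 0.05 for all genes. With spike-in scaling 1 rose and 1 fell, and all genes moved from 600 higher and 891 lower to 210 higher and 729 lower. Between MB at 84 h and the pupa, none of the 10 was called by edgeR, DESeq2 or limma, and 2 had an unadjusted p under 0.05; 2.61% of all genes were called.

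**Figure D4:**
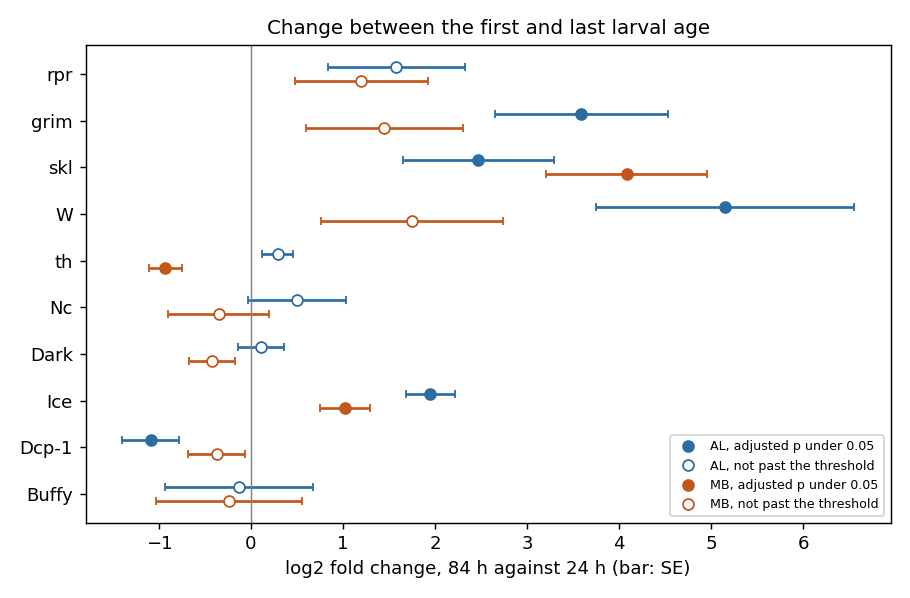
Log2 change from 24 to 84 h (horizontal axis) of the 10 genes in AL and in MB, with the standard error as a bar; filled points passed an adjusted p of 0.05. Ice and skl are filled to the right in both lineages, th is filled to the left in MB (-0.93) and open in AL (0.29), and W in AL rests on 1 count at 24 h.

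By single steps, no gene of the 10 was called between 24 and 36 h in AL (3 at an unadjusted p under 0.05, 1 with DESeq2, 0 with limma; background 3.76%). Ice and grim rose between 36 and 50 h (background 3.27%, 1.83% higher), and Ice and W between 50 and 84 h (background 4.38%, 1.41% higher). In MB none was called between 24 and 50 h (4 at an unadjusted p under 0.05, 0 with DESeq2, 0 with limma and 4 lower with spike-in scaling; background 3.55%), and Ice rose between 50 and 84 h (background 3.88%, 0.998% higher). Across all 4 ages, 5 of the 10 were called in AL (Ice, grim, W, Dcp-1 and Dark), where the background was 15.3%. In MB 3 were called (Ice, th and skl), where it was 17.7%. In AL, Dcp-1 (adjusted p = 0.035) was lost with spike-in scaling (0.48), with limma (0.096) and in 5 of the fits without 1 library. The AL call of W was lost with limma (0.33). Between the lineages, W and th differed at 24 h (background 10.8%), Ice and W at 50 h (11.3%) and Ice and th at 84 h (7.67%).

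The comparisons of age share libraries, and markers of other cells differed with age, as did the neuroblast genes in MB given above. Summed over 8 glial genes, CPM went from 443 to 634 at 24 h down to 338 to 401 at 84 h in AL, and from 514 to 587 down to 323 to 392 in MB. Most of that sum was nrv2 and Eaat1, whose MB means went from 364 to 199 and from 177 to 153 CPM. The sparser repo, moody, alrm, gcm and wrapper had higher means in MB at 84 h (repo 0.402 to 1.34), and Gs2 a lower one. The median log2 change of the 8 genes was -0.42 in AL and 0.12 in MB. The 10 neuronal genes summed to 593 to 670 CPM at 24 h and 530 to 593 at 84 h in AL, and to 640 to 741, 432 to 500 and 667 to 693 at 24 h, 84 h and in the pupa in MB. The 8 haemocyte genes summed to 24.8 to 96.6 CPM at 24 h and 6.51 to 31.6 at 84 h in AL, and to 27.2 to 69.8 and 29.2 to 47.7 in MB. Of these, NimC1 was at 0 in MB at 24 h and at 4.38 ± 1.96 CPM at 84 h (adjusted p = 0.019, lost without any 1 of the MB libraries at 24 h). The 5 fat body genes summed to 4.1 to 15.4 CPM at 24 h and 9.35 to 11.3 at 84 h in AL, and to 5.56 to 7.75, 13 to 17 and 21 to 26.9 at 24 h, 84 h and in the pupa in MB. Among them Lsp1gamma was called higher at 84 h in AL (adjusted p = 0.026; lost without AL replicate 1 or 2 at 24 h or replicate 2 at 84 h) and in MB (adjusted p = 0.011; lost without MB replicate 2 at 24 h). Their part in the changes of the death genes was not tested.

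Around the 10 genes, 8 lists of pathway partners were counted; the shares of all genes called are those given above. Upstream death signalling held 13 tested genes of stress, JNK and growth control. In AL from 24 to 84 h, 3 rose and 2 fell, with a median of 0.26. The transcription factor foxo, which drives stress and starvation programmes, went from 19.2 ± 7.55 to 57.6 ± 4.42 CPM (log2 change 1.58 ± 0.23, adjusted p = 1.8e-06). The Eiger receptor wgn went from 1.18 ± 1.54 to 12.1 ± 4.67 CPM (3.31 ± 0.85, adjusted p = 0.0054). The growth inhibitor scyl rose by 0.79 ± 0.14 (adjusted p = 7.1e-05). The kinase gene hep, which activates JNK, fell by 0.85, a call lost without AL replicate 3 at 24 h, with limma (-0.72) and with spike-in scaling (-0.27).

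In MB, 7 of these 13 genes fell by 84 h and none rose, with a median of -0.62 against 0.05 for all genes. The paralog of scyl, chrb, went from 1201 ± 178 to 294 ± 103 CPM (-2.03 ± 0.19, adjusted p = 1.4e-08). The TNF ligand egr went from 37.7 ± 6.58 to 13 ± 3.55 CPM (-1.53 ± 0.31, adjusted p = 0.00028), and foxo from 157 ± 9.39 to 78.4 ± 5.3 CPM (adjusted p = 0.00088). The stress factor Xrp1 fell by 0.62 (adjusted p = 0.00069), a call lost with limma (-0.37). Between 84 h and the pupa, scyl (-1.32), chrb (-1.11) and Xrp1 (-0.76) fell further. With spike-in scaling chrb (-1.02, adjusted p = 0.064) and Xrp1 (-0.69, adjusted p = 0.46) were not called. The change from 24 to 84 h differed between the lineages for foxo (2.59 ± 0.32, adjusted p = 1.6e-07), chrb (2.08 ± 0.26), egr (1.88 ± 0.43) and scyl (1.41 ± 0.20), each called in every alternative.

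Closer to the apoptosome, the 4 Bcl-2 and apoptosome partners had medians of -0.28 in AL and -0.41 in MB. Of these, Cyt-c-p, the somatic cytochrome c gene, fell in MB from 679 ± 31.3 to 351 ± 4.65 CPM (-0.95 ± 0.14, adjusted p = 1.9e-06). In AL its change of -0.49 ± 0.14 was called (adjusted p = 0.015), but it was 0.12 with spike-in scaling. The AL call was also lost in a fit of the 2 groups alone (-0.46, adjusted p = 0.1) and with limma (-0.36, adjusted p = 0.15). So it was without AL replicate 1 or 3 at 24 h or AL replicate 1 or 2 at 84 h. None of the 3 other tested caspases (medians -1.27 in AL and 0.35 in MB) was called (1 in each at an unadjusted p under 0.05, 0 with DESeq2, 0 with limma). Of 9 inhibitor-of-apoptosis genes and partners (medians 0.22 in AL and 0.41 in MB), Uba1, the ubiquitin-activating enzyme, rose in MB (0.54 ± 0.10, adjusted p = 0.0001; 0.31 and not called with spike-in scaling), and none was called in AL (2 at an unadjusted p under 0.05, 1 with DESeq2, 1 with limma).

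The medians of 18 tested autophagy genes were 0.00 in AL and -0.01 in MB. Atg3 rose in AL (1.03 ± 0.34, adjusted p = 0.036), and Atg17 fell in MB (-0.83 ± 0.18, adjusted p = 0.00075). The Atg3 call was lost in a fit of the 2 groups alone (adjusted p = 0.057). It was also lost without AL replicate 1 or 2 at 24 h or AL replicate 1 or 2 at 84 h. Among 6 engulfment genes, with medians of 0.20 in AL and 0.10 in MB, the adaptor ced-6 rose in AL from 2.76 ± 3.51 to 19.1 ± 2.56 CPM (2.77 ± 0.63, adjusted p = 0.002). In MB the receptor crq rose (1.33 ± 0.37, adjusted p = 0.0099) and the receptor drpr fell (-0.77 ± 0.24, adjusted p = 0.02). Both MB calls were lost with spike-in scaling (crq 1.07, drpr -0.99) and without MB replicate 3 at 24 h or at 84 h, and that of drpr also without MB replicate 2 at 24 h and with limma (-0.59). Both receptors also serve glia and haemocytes, whose summed markers are given above. The part of such cells in these changes was not tested. Of 6 nuclear effectors (medians -0.32 in AL and 0.03 in MB), the nuclease inhibitor gene Rep1, listed as Drep-1, was lower in MB (-0.94 ± 0.32, adjusted p = 0.043), a call lost in 7 of the fits without 1 library, with limma (-0.71) and with spike-in scaling (-1.17, adjusted p = 0.06).

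Among 6 regulators known to set when neuroblasts die, with medians of 0.01 in AL and -0.02 in MB, none was called in AL (0 at an unadjusted p under 0.05, 0 with DESeq2, 0 with limma). In MB, the Notch receptor gene N went from 713 ± 17.6 to 364 ± 9.91 CPM (-0.97 ± 0.13, adjusted p = 1.2e-07) and the temporal factor grh from 1065 ± 48 to 584 ± 71.6 CPM (-0.87 ± 0.12, adjusted p = 4.6e-07). Both changes differed between the lineages, by 0.78 ± 0.18 for N (adjusted p = 0.0037, lost with limma) and by 0.95 ± 0.17 for grh (adjusted p = 0.00015). In the abdomen of the larva, grh and N take part in the death of neuroblasts; that is background from another region of the nervous system.

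The inducers' neighbours were examined because the interval holds 9 genes of the table. Of the 5 that are not inducers, CG7320 and CheA75a were too low to test. CG13700 was at 0.369 ± 0.298 CPM in MB at 24 h and 8.36 ± 3.31 at 84 h, and CG5103 at 0.06 ± 0.104 and 5.3 ± 2.18. Both passed between these ages, as did the non-coding CR43306, at 0 and 1.97 ± 0.428 CPM. Among all tested genes 14.4% were called there, 5.81% higher at 84 h. The MB means of CG5103 and CR43306 at 24 h lay below the count floor of 0.337 to 0.887 CPM. In AL, none of the 3 tested neighbours was called between 24 and 84 h. CG5103 was called over the 4 AL ages, with means of 0.211 ± 0.233 CPM at 24 h and 2.85 ± 2.82 at 84 h.

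Lastly, for each of the 10 genes the 3 genes of most similar profile over the 24 libraries were listed by Pearson's r of log2 CPM, as a description of libraries that share depth and composition. Ice was closest to lolal (0.94), CkIalpha (0.91) and CG9238 (0.88). For skl these were His3.3A (0.87), Hsp67Ba (0.85) and Syb (0.84), and for W wun2 (0.87), CG14974 (0.84) and CG1602 (0.83). The nearest to th were tara (0.82), Mnt (0.78) and tna (0.78), to grim CG10249 (0.78) and to rpr l(3)72Ab (0.76). Dark was closest to Npc2f (0.74), Nc to Arpc4 (0.76), Dcp-1 to CrebB-17A (0.75) and Buffy to Pgm (0.70).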

How the data were processed

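Gene counts and TPM values for 24 libraries (8 groups of 3) were used as deposited. The submitters' processing notes name the counter HTSeq 0.6.1p1, the aligners STAR 2.4.0i and Bowtie2 2.1.0, the trimmer cutadapt 1.7.1 and CASAVA, without order, and the builds dm3 and mm10. The deposited counts are whole reads per gene, and the TPM values were deposited already scaled to transcript length; the counting's strand setting is not given in the sources used here. Of 15437 rows, 92 spike-in rows, 5 summary rows and 1 row with no name were left out of library sizes and tests; the summary row of reads in no gene held 6.88 to 11.6% of a library's reads. The 5 gene symbols turned into dates in the TPM table were restored from their position in the count table.

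Counts were tested with edgeR 4.0.16 (R 4.3.3): filterByExpr, trimmed mean of M-values scaling, robust quasi-likelihood fit of all 24 libraries with 1 mean per group, and Benjamini-Hochberg adjustment over the 10324 genes tested, separately in each of 14 comparisons, with calls at an adjusted p of 0.05. Ratios of low counts carry exact 95% intervals for counting error only. Alternatives were DESeq2 1.42.0, spike-in and cell number scaling, no filter, the compared groups alone, a replicate block, limma 3.58.1 on log2(TPM + 1) and each library left out. All 10 genes were tested in every comparison, but not every result is given in the text, nor every call gained under an alternative. Of each pathway list, up to 4 called genes with the smallest adjusted p were eligible to be named. The 10 genes and all lists were chosen with earlier results of these data known.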

Additional observations from a re-analysis of the deposited data

Results flagged for a closer look

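The change of th from 24 to 84 h differed between the lineages by a log2 value of 1.22 ± 0.25, AL minus MB (adjusted p = 0.00098, quasi-likelihood test of edgeR). The difference itself was tested across the 4 groups of 3 libraries. The change was -0.93 in MB and 0.29 in AL.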

How the results depend on the processing

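For the 10 genes and the named partners, single left-out libraries kept 3941 gene results on their side of the threshold, with 14 newly called and 77 lost, and the other settings kept 932, with 35 newly called and 40 lost. Most results of the 10 genes were not called by the main test and could not be lost. The kept totals therefore do not measure how stable the calls were. In 1 case the sign changed: Cyt-c-p in AL from 24 to 84 h, -0.49, was 0.12 with spike-in and cell number scaling. Except where stated, the cause of a change was not tested.

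Spike-in scaling moved the median log2 value of all genes from 0.02 to -0.98 between 24 and 50 h in MB, from 0.01 to 0.79 between 50 and 84 h in MB, and from 0.01 to -1.05, -0.01 to 0.35 and -0.04 to -0.27 between the lineages at 24, 50 and 84 h. For the lineage difference in change it moved from -0.04 to 0.81. Cell numbers enter this scaling, and those labelled for AL at 24 h (106, 108 and 101) recur at 84 h. It called 6 of the 10 genes over the 4 MB ages (3 otherwise), 10 of 50 tests over the 5 steps (5 otherwise) and 2 of the 10 for the lineage difference (1 otherwise). Its counts over all genes were 3866 over the 4 MB ages (1829 otherwise), 939 for MB from 24 to 84 h (1491), 100 for the pupa (269), 5379 over the 5 steps (1945), 5134 between lineages (3082) and 1079 for the lineage difference (486).

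With limma on log2(TPM + 1), 2 of the 10 genes were called over the 4 AL ages (5 otherwise), 5 over the 4 MB ages and 3 for AL from 24 to 84 h (5 otherwise). Its counts over all genes were 1531, 2073 and 1240 in that order, against 1584, 1829 and 1277 otherwise. DESeq2 called 5 over the 4 MB ages, and 2276 of all genes (1829 otherwise). A fit of the compared groups alone called 2 for AL from 24 to 84 h, and 982 of all genes (1277 otherwise). Testing without a filter called 9 over the 5 steps, and 2533 over all genes (1945 otherwise). Leaving out single libraries gave 3 to 5 of the 10 genes over the 4 AL ages (1321 to 1615 of all genes). It gave 3 to 5 for AL from 24 to 84 h (933 to 1302 of all genes) and 162 to 292 of all genes for the pupa.

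Same-numbered libraries did not deviate together: r was -0.092 to 0.069 over 84 pairs, none over 0.1, and 10 of 24 libraries correlated best with their own number. With the replicate number as a block, 4 of the 10 genes were called for AL from 24 to 84 h, skl being lost (2.51, adjusted p = 0.057). Over the 4 AL ages 4 were called, Dark being lost. Among all genes the block called 1246 and 1525 in these comparisons, against 1277 and 1584 without it. Ice was also lost for AL from 50 to 84 h (0.85, adjusted p = 0.055). Depth limits W, Buffy and grim most, with 523, 543 and 838 counts over all libraries. At 3 counts per library the floor is up to 0.887 CPM.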
